A study of Mus musculus with 34 samples.

Results

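The comparison set the messenger RNA of brown preadipocytes that carried an ectopic PPARγ2 but had received no ligand, only the solvent DMSO (PPARg WT DMSO), against that of preadipocytes without the ectopic receptor at the start of an adipogenesis course (WT D0). Genes were chosen by level alone, as those with an RPKM (a read count corrected for transcript size and library depth) of at least 1 in either library, and 12130 of 23109 genes passed. Of these, 10846 were at or above 1 in both libraries. The genes nearest to the limit were *Oas3* at 1.001 inside it and *Mertk* at 0.9995 outside it.

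The cells of all groups came from the interscapular brown fat of newborn C57BL/6J pups with a floxed glucocorticoid receptor gene (GR-flox/flox) and had been immortalized with SV40T. Both libraries of the pair were from cells that carried a retroviral FLAG-tagged WT histone H3.3 selected with puromycin. The PPARg WT cells had received a second retrovirus with PPARγ2, were selected with hygromycin and were kept sub-confluent, whereas D0 cells were confluent. The labels put the unliganded library at time 0 of the ligand treatment, and the study's methods describe it as given DMSO alone. K36M D0 and PPARg K36M DMSO were the matching pair with the lysine-to-methionine mutant of H3.3. Con D0 was a further confluent preadipocyte library, from cells with a lentiviral control shRNA and no ectopic H3.3. There was 1 library per condition, so no difference here has a replicate check and no test was made. The receptor, the second infection and its selection, DMSO, the density of the culture and the experiment in which a library was made all changed together between PPARg WT DMSO and WT D0 and cannot be told apart. The 2 libraries were of like depth, with 21749427 and 21388064 mapped reads. A ratio is given as log2 of PPARg WT DMSO over WT D0, and its 95% counting interval covers the sampling of reads only.

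PPARγ is a nuclear receptor that binds DNA as a dimer with RXR and is the central regulator of fat cell formation. Without ligand it is held to bind corepressors such as NCoR1, and with an agonist such as rosiglitazone (Rosi) it recruits coactivators and switches on genes of lipid uptake and storage. C/EBPα, encoded by *Cebpa*, is its partner in that program, and the 2 factors maintain each other's expression. Preadipocytes at D0 are committed but express little of the mature program.

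*Pparg* (chr6:115311239-115440419, mm9) stood at 60.2 RPKM in PPARg WT DMSO and at 13.4 in WT D0, from 2317 and 506 reads. The transcript record with the highest mean level was taken. The log2 ratio was 2.17 (interval 2.03 to 2.31), or 4.50-fold. The other libraries with the retrovirus were at 56.8 (PPARg WT Rosi), 71.8 (PPARg K36M DMSO) and 42.6 (PPARg K36M Rosi). Every D0 library was lower, at 12.5 in Con D0, 11.5 in K36M D0 and 26.4 in shNSD2 D0. WT cells without the retrovirus reached 66.7 at D2 and 101 at D7 of the course, above the level in PPARg WT DMSO. The files hold 2 *Pparg* transcripts, and the other record gave close to the same values (57.2 and 13.0 RPKM), so that reads of the ectopic and of the endogenous copy could not be separated.

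**Figure D1:**
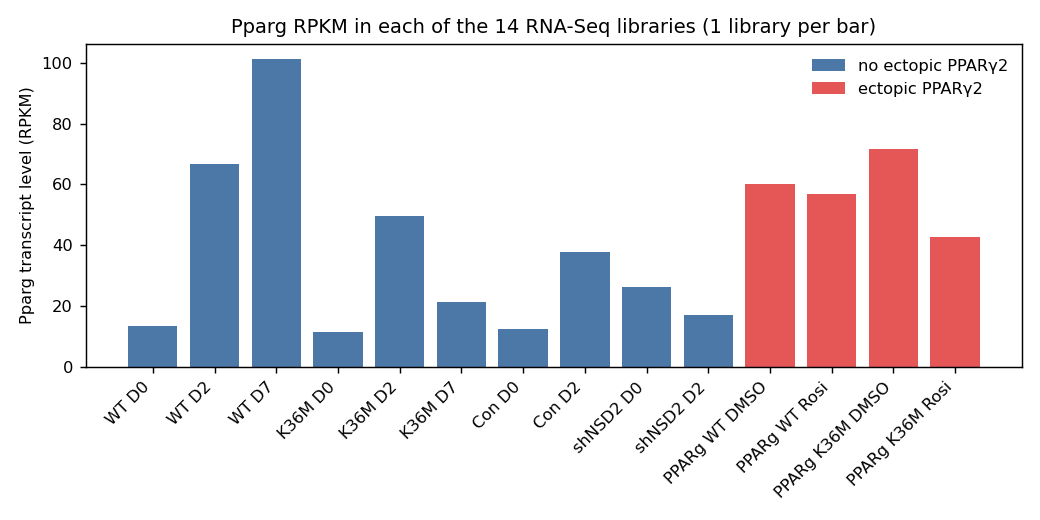
*Pparg* level in RPKM (y axis, from 0) in each of the 14 RNA-Seq libraries (x axis, 1 bar per library), with libraries that carried ectopic PPARγ2 in red. PPARg WT DMSO reached 60.2 RPKM against 13.4 in WT D0, and WT D7 without the retrovirus reached 101.

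Across the pair, 1006 genes (8.29%) were over 2-fold higher and 2762 (22.8%) over 2-fold lower in PPARg WT DMSO, and 8362 lay within 2-fold. The median log2 ratio of all 12130 genes was -0.30, against which the ratios below should be read. Likewise, each count of list members against WT D0 should be read beside the 8.29% and 22.8% of all genes. The counting interval excluded equality for 973 of the higher and 2700 of the lower genes, and the whole interval lay beyond 2-fold for 677 and 1931. The remaining calls were not secure at 2-fold at this depth. Rescaling the libraries by their median ratio changed the division of calls to 1503 higher and 1969 lower.

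A pair of measurements bears on every gene that follows. The first is the share of a gene's longest coding transcript that occurs more than once in the mouse genome, counted in 32-base windows. Among the 4968 genes without a repeated window the median log2 ratio was -0.23, and among the 188 genes with over 75% of windows repeated it was 1.95. Con D0 over WT D0, a comparison without ectopic PPARγ, gave a median of 1.70 for the same 188 genes, and PPARg WT DMSO over Con D0 gave 0.19. *Rpl19*, a ribosomal protein gene with many processed copies, had 602 RPKM in PPARg WT DMSO and 404 in Con D0 but 0.82 in WT D0 and 1.71 in K36M D0. Genes with over 50% repeated windows took 6.35% of the gene reads in PPARg WT DMSO, 4.73% in Con D0 and 2.21% in WT D0. The WT and K36M course libraries therefore hold few reads of multi-copy genes, and ratios of such genes to WT D0 are uncertain. Restricted to the 9393 genes with at most 10% repeated windows, 526 (5.6%) were higher and 2189 (23.3%) lower.

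**Figure D2:**
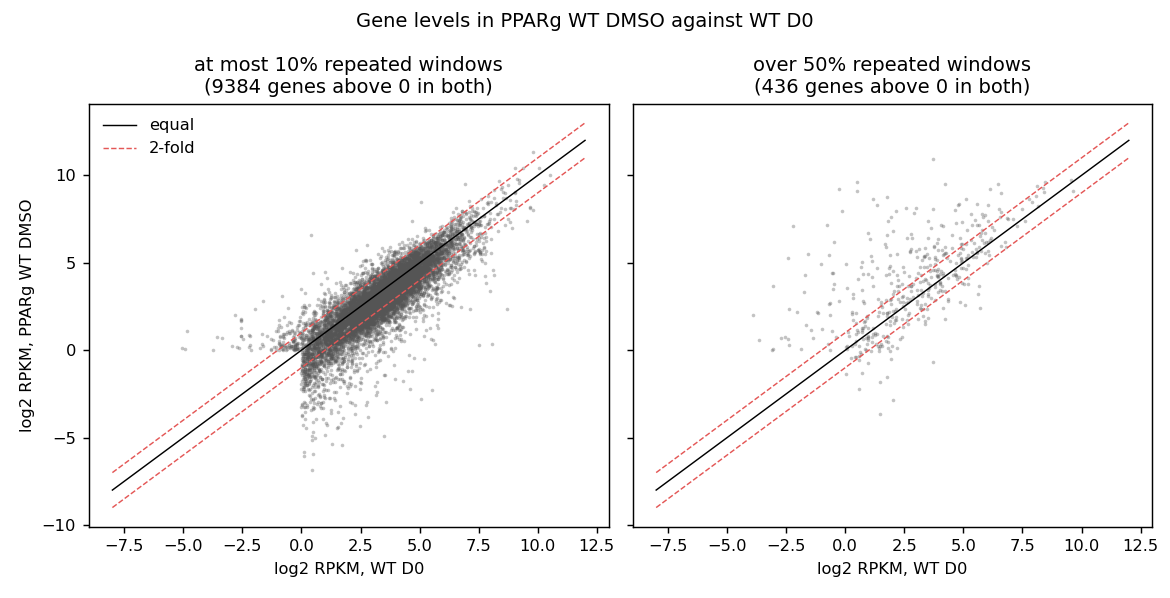
Log2 RPKM of each gene in WT D0 (x axis) and PPARg WT DMSO (y axis), for genes with at most 10% (left) and over 50% (right) of their 32-base windows repeated in the genome, with the line of equality in black and 2-fold limits dashed in red. Genes at 0 in either library are not drawn. Repeated genes spread upward from the line, whereas the others spread mainly below it.

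The second is how far the D0 libraries differed among themselves. Con D0 over WT D0 gave 864 genes over 2-fold higher (7.1%) and 1843 lower (15.1%) of 12175. PPARg WT DMSO over Con D0 gave 404 higher (3.43%) and 822 lower (6.98%) of 11776, with a median log2 ratio of -0.05 over the genes of the main pair. The count of differences was thus smaller against the D0 library of another experiment than against WT D0. The comparisons with WT D0 and Con D0 share the PPARg WT DMSO library, so their values are given side by side.

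Genes that PPARγ is known to activate were in part higher in the unliganded cells. Of 26 listed targets, 22 passed the RPKM limit, with 9 over 2-fold higher and 2 lower than in WT D0, a median log2 ratio of 0.70. Of all genes, 8.29% were higher and 22.8% lower. Among the 19 targets with at most 10% repeated windows, 8 were higher and 2 lower (median 0.50). Against Con D0, 13 of the same 22 were higher and none was lower, with a median of 1.72. The shares of all genes there were 3.43% and 6.98%. They were taken over a different set, the 11776 genes that reached 1 RPKM in PPARg WT DMSO or Con D0. In the K36M pair 8 of the 22 targets were higher and 2 lower (median 0.41). *Fabp4*, the fatty acid carrier protein of adipocytes, was at 112 RPKM in PPARg WT DMSO, 37.6 in WT D0 and 14.8 in Con D0. Its log2 ratio to WT D0 was 1.58 (1.44 to 1.73), and PPARg K36M DMSO against K36M D0 gave 69.4 and 18.5. These levels were small beside those of cells given Rosi or differentiated, since *Fabp4* reached 2505 RPKM in PPARg WT Rosi and 3249 in WT D2.

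The largest ratios in the group belonged to genes of low level. *Aqp7*, the glycerol channel, was at 1.73 RPKM against 0.0926 in WT D0 (log2 ratio 4.22, 2.95 to 5.88). *Cd36*, a fatty acid receptor, was at 1.15 against 0.151 (2.93, 2.01 to 3.98). *Cidec* and *Plin1*, which coat and enlarge lipid droplets, were at 3.78 against 0.604 and at 2.37 against 0.503. All 4 had 3 reads or fewer in Con D0, where each stood below 0.1 RPKM. The lipase *Lipe* (5.38 against 1.73), the glycerol phosphate dehydrogenase *Gpd1* (1.95 against 0.688) and the lipoprotein lipase inhibitor *Angptl4* (42.7 against 21.0) were likewise over 2-fold higher than in WT D0. *Aqp7*, *Cd36*, *Cidec*, *Plin1* and *Gpd1*, all among the 9 counted as higher, passed the RPKM limit only through PPARg WT DMSO. The limit itself thus favoured a higher call for these genes.

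Other members depended on which D0 library was the reference. *Lpl*, lipoprotein lipase, was at 71.0 RPKM, below the 204 of WT D0 but above the 22.2 of Con D0. *Plin2*, a droplet coat protein of many cell types, was at 72.8, against 99.7 in WT D0 and 19.5 in Con D0. *Adipoq*, the hormone adiponectin, had 1.46 RPKM against 1.56 in WT D0 (39 and 41 reads), and 0.0411 in Con D0 (1 read). The acyl-CoA synthetase gene *Acsl1* was lower than in WT D0 (4.66 against 11.6) and near Con D0 (4.92). *Scd1*, the desaturase, did not separate the libraries at 27.7, 25.5 and 27.03.

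**Figure D3:**
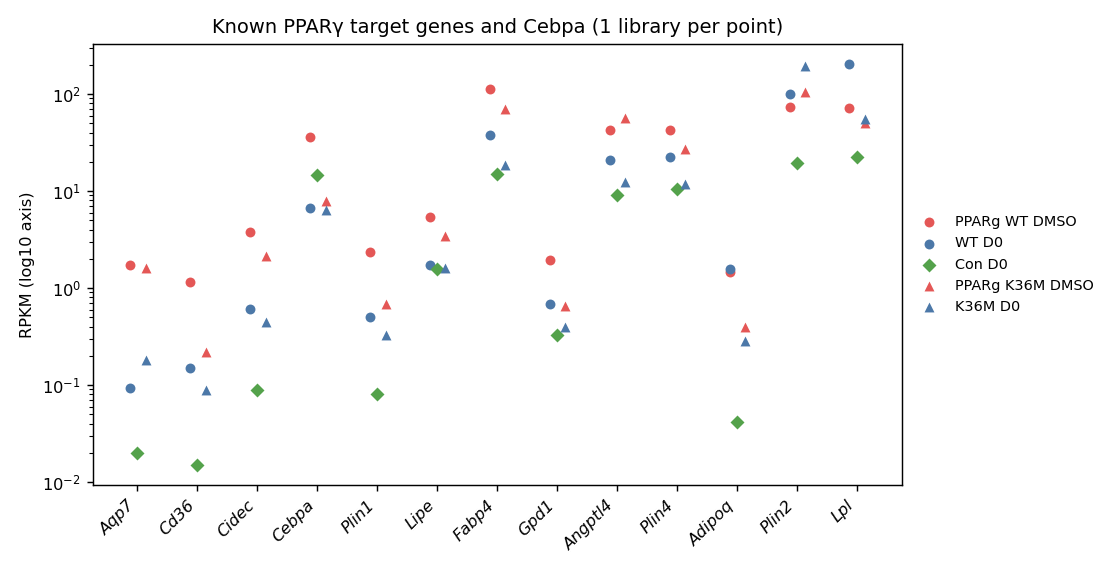
RPKM (y axis, log10 scale) of 12 known PPARγ targets and *Cebpa* (x axis) in PPARg WT DMSO and WT D0 (circles), Con D0 (diamonds), and PPARg K36M DMSO and K36M D0 (triangles), 1 library per point. PPARg WT DMSO is above WT D0 for *Aqp7* through *Plin4* and at or below it for *Adipoq*, *Plin2* and *Lpl*, and above Con D0 for every gene drawn.

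*Cebpa* (chr7:35904312-35906945, mm9) differed more in the WT pair than in the K36M pair, with 1 library per point. It was at 36.2 RPKM in PPARg WT DMSO, 6.64 in WT D0 and 14.7 in Con D0, a log2 ratio of 2.45 (2.29 to 2.61) to WT D0. In K36M cells the pair was at 7.98 and 6.33, a log2 ratio of 0.33. The level was 187 in PPARg WT Rosi and 208 in WT D2. Among 18 adipogenic transcription factors, 4 were over 2-fold higher and 7 lower than in WT D0, where 8.29% and 22.8% of all genes were. The median log2 ratio was -0.18, and it turned to 0.06 when the libraries were rescaled. Against Con D0 it was 3 higher and 3 lower (median -0.03). The 2 C/EBP factors that act before *Cebpa* were lower, *Cebpb* at 51.9 against 137 and *Cebpd* at 6.14 against 42.8. *Klf15*, a transcription factor induced in maturing adipocytes and by glucocorticoids, was at 0.24 against 8.58, and *Prdm16*, a determinant of brown fat, at 0.180 against 1.36. *Srebf1*, *Zfp423* and *Nr1h3* were each over 2-fold higher than in WT D0, and of these *Nr1h3*, the liver X receptor and itself a known target, was also over 2-fold above Con D0 (4.47 against 1.71).

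Of 9 genes for the receptor and its coregulators, 1 (*Pparg* itself) was over 2-fold higher and 3 were lower than in WT D0 (median -0.12, or 0.13 after rescaling). The shares of all genes were 8.29% and 22.8%. *Rxra*, the dimer partner of PPARγ, was at 26.2 RPKM against 18.1 and the corepressor gene *Ncor1* at 18.0 against 23.3. The coactivator genes *Ncoa1* (2.93 against 8.63), *Ncoa2* (4.36 against 11.1) and *Med1* (7.40 against 15.1) were over 2-fold lower than in WT D0, and none of the 3 passed 2-fold against Con D0. Of 14 brown fat genes 6 passed the RPKM limit, with 1 higher and 3 lower (median -0.86), where 8.29% and 22.8% of all genes were. Against Con D0 the direction was the opposite, with 3 higher and 2 lower (median 0.81). The potassium channel gene *Kcnk3* was higher at 1.77 RPKM against 0.172, and the fatty acid elongase *Elovl3* (0.0979 against 1.39) and the transcription factor gene *Zic1* (1.74 against 5.05) were lower along with *Prdm16*. *Kcnk3*, *Elovl3* and *Prdm16* reached the RPKM limit only in the library where they were higher, so the limit itself favoured their calls. *Ucp1*, the uncoupling protein of mature brown fat, had 0 reads in both libraries, which allows a level of up to 0.0839 RPKM in PPARg WT DMSO and 0.0853 in WT D0.

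Cholesterol genes were in part higher than in WT D0 but near their level in Con D0. Of 14 cholesterol genes, 7 were over 2-fold higher and none lower than in WT D0 (median 1.08), and none passed 2-fold in either direction against Con D0 (median 0.01). *Mvd*, which makes isopentenyl diphosphate, was at 14.6 RPKM in PPARg WT DMSO, 4.30 in WT D0 and 10.4 in Con D0. *Nsdhl*, a later enzyme of sterol synthesis, was at 9.81, 4.11 and 6.98. *Idi1* and *Fdps* had the largest ratios of the list, but 84.6% and 80.0% of their windows are repeated. Among 12 genes of fatty acid and triglyceride synthesis 4 were higher and 2 lower than in WT D0 (median 0.21), and none passed 2-fold against Con D0 (median 0.18). Of all genes, 8.29% were higher and 22.8% lower than in WT D0. Fatty acid synthase, *Fasn*, was at 57.6 against 20.1 in WT D0 and 50.1 in Con D0, and the citrate lyase *Acly* at 69.6, 31.9 and 54.8. *Dgat2*, which completes triglycerides, went the other way at 6.74 against 30.4, with 3.73 in Con D0.

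Genes of cell division showed the same pattern. Of 20 mitosis and G2/M genes, 14 were over 2-fold higher and none lower than in WT D0 (median 1.56), and none passed 2-fold against Con D0 (median 0.01). *Ccnb2*, a mitotic cyclin, was at 44.6 RPKM in PPARg WT DMSO, 9.47 in WT D0 and 43.6 in Con D0. The spindle kinase genes *Plk1* (39.2, 8.21 and 32.2) and *Aurkb* (28.2, 5.59 and 25.6) had the same order. *Mki67*, the proliferation antigen, was at 31.03, 15.1 and 48.7, and thus lower than in Con D0. *Ccnb1* was at 57.3, 10.4 and 52.8, with 66.8% of its windows repeated. In K36M cells 9 of the 20 were over 2-fold higher (median 0.96).

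Genes of DNA replication differed less, with 4 of 20 over 2-fold higher and none lower (median 0.39), and 1 higher and none lower against Con D0 (median 0.07). They were *Rrm2* (136 against 39.5 RPKM), *Mcm5* (58.1 against 24.6), *Cdc45* (19.2 against 8.45) and *Uhrf1* (43.2 against 20.8). Of these, *Rrm2* and *Uhrf1* have 22.3% and 40.7% of their windows repeated, so that their ratios are uncertain. In the K36M pair this list went the other way, with 1 higher and 4 lower (median -0.58), and *Mcm2* stood at 65.2 against 158. The sign of the list's median was thus not shared between the pairs, unlike that of the mitosis list.

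Both lists bear on the cell cycle, and a short promoter motif recurs in the first of them. The cell cycle homology region (CHR, searched as TTTGAA on both strands) is a known element of genes expressed at G2/M. Promoter windows from RefSeq, 250 bases before to 50 after the start, were at hand for 16 of the 20 mitosis genes, and 12 (75%) held the motif, against 1315 of 9272 genes of the pair (14.2%). For the replication list it was 2 of 15. This motif and the ISRE and CARE below were chosen after the values had been seen, and a match is a description and not a site. The bases before the start of *Cdk1*, the mitotic kinase (50.3 against 17.2 RPKM), and of *Cdc20*, the activator of anaphase (70.2 against 16.8), are shown from 5′ to 3′ with the motif in capitals, at chr10:68815661-68815910 and chr4:118109949-118110198 on the minus strand of mm9.
Cdk1: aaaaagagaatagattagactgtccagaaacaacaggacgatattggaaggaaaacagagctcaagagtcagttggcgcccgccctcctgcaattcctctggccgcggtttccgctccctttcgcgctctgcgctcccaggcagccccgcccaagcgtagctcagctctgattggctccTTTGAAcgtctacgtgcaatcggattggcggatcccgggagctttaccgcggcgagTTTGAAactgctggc
Cdc20: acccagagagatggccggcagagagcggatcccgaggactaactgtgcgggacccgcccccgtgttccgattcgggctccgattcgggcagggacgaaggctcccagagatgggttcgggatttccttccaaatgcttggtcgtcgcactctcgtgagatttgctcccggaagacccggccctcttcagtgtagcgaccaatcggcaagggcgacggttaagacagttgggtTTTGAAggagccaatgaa

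Contractile and SRF target genes, which respond to actin tension and spreading, were also higher than in WT D0. Of 12, 6 were over 2-fold higher and none lower (median 0.96), whereas against Con D0 it was 1 and none (median 0.19). Smooth muscle actin, *Acta2*, was at 1372 RPKM in PPARg WT DMSO, 529 in WT D0 and 1193 in Con D0, and *Tagln*, which binds actin, at 367, 136 and 425. *Ankrd1* was the member over 2-fold above Con D0, at 61.2 against 26.6, with 65.9 in WT D0.

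Of 18 matrix genes, 1 was over 2-fold higher and 5 lower than in WT D0 (median -0.33), shares close to the 8.29% and 22.8% of all genes. None was higher and 6 were lower against Con D0 (median -0.32), and the K36M pair had the opposite sign, with 2 higher and 3 lower (median 0.55). *Col1a1*, the main fibrillar collagen, was at 883 RPKM against 560 in WT D0 and 1678 in Con D0. Fibronectin, *Fn1*, was at 281 against 821 and 721, *Col3a1* at 52.5 against 142 and 162, and fibrillin-1, *Fbn1*, at 50.6 against 184 and 122. Decorin, *Dcn*, a small proteoglycan of fibroblasts, had 6 reads against 1325, or 0.146 RPKM against 32.9, with 9.77 in Con D0. In the K36M pair *Dcn* was below the RPKM limit in both libraries, at 0.0653 against 0.481 from 3 and 18 reads. Its log2 ratio there was -2.88 (-5.29 to -1.10). *Col3a1* and *Fbn1* did not share a direction in K36M cells, at 48.4 against 27.4 and 40.0 against 77.4.

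Markers of preadipocytes and of mesenchymal cells were present in both libraries. *Pdgfrb* was at 59.4 and 70.7 RPKM, *Twist1* at 25.7 and 27.9 and *Prrx1* at 30.1 and 97.4. Of 13 members 2 were over 2-fold higher and 7 lower (median -1.15), where 8.29% and 22.8% of all genes were. The shift was smaller against Con D0 (median -0.25) and in the K36M pair (median -0.11), each with 1 higher and 4 lower. *Ly6a*, the progenitor antigen Sca-1, was at 83.3 RPKM against 197 in WT D0 but 67.7 in Con D0. *Dlk1*, a preadipocyte protein that holds back differentiation, was at 9.55 against 27.6 in WT D0 and 38.1 in Con D0. *Pdgfra*, the receptor that marks adipocyte progenitors, was at 7.30 against 29.5 and 22.9. Vimentin, *Vim*, an intermediate filament, was at 2605 against 884 and 968. The listed markers of other cell types were low with the exceptions of *Acta1*, *Csf1r* and *Cd14*. None of 6 endothelial and none of 5 epithelial markers reached 1 RPKM, and their summed levels were 0.514 and 0.421 in PPARg WT DMSO against 1.69 and 2.37 in WT D0. The macrophage markers summed to 3.57 and 3.84 RPKM, with *Ptprc* and *Itgam* below 0.02 in both, *Csf1r* at 1.54 against 0.181 and *Cd14* at 1.93 against 3.15. Skeletal *Acta1* was at 31.4 against 10.2, with *Myod1*, *Myog* and *Myf5* below 0.1. *Krt19*, an epithelial keratin outside the list, was at 52.5 against 5.01. The part of such cells or genes in the other results was not tested.

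**Figure D4:**
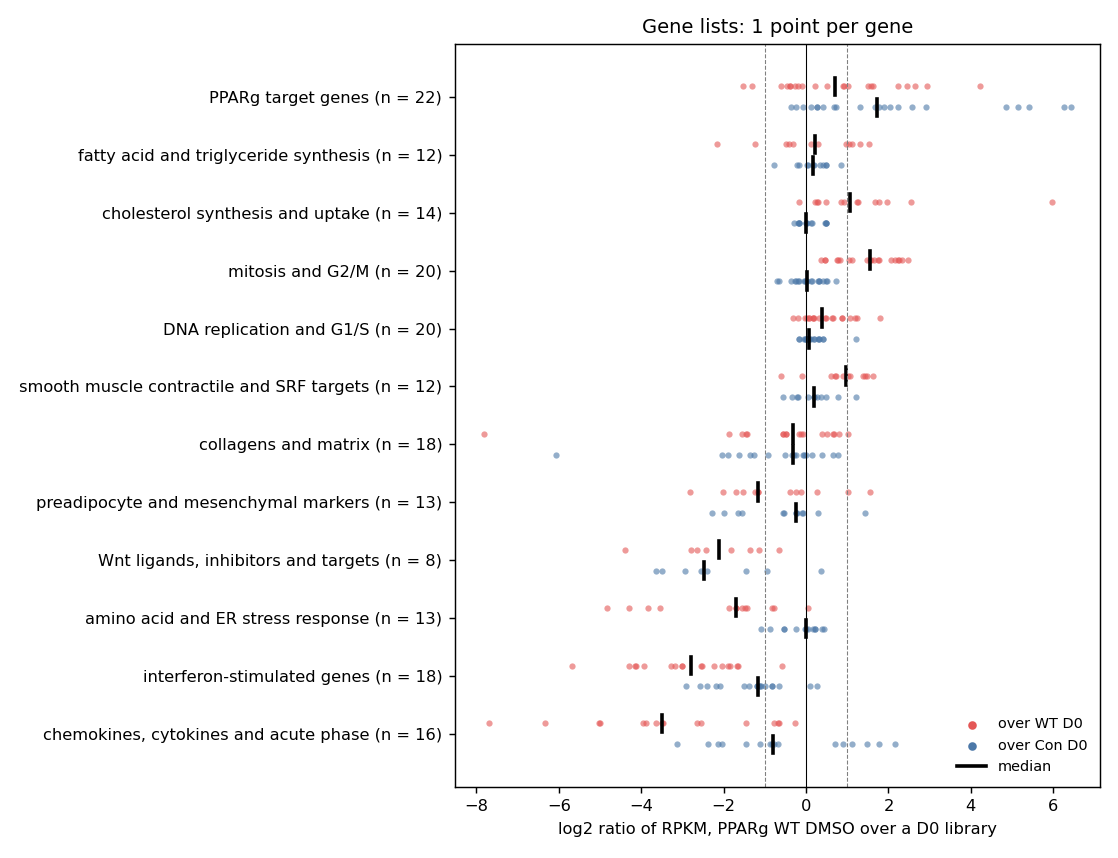
Log2 ratio of PPARg WT DMSO over WT D0 (red) and over Con D0 (blue) on the x axis for each gene of 12 lists (y axis), 1 point per gene, with medians as black bars and 2-fold limits dashed. Mitosis, cholesterol and amino acid stress genes are centred near 0 against Con D0 only, whereas PPARγ targets are shifted up, and Wnt and interferon genes down, against both D0 libraries.

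Secreted Wnt inhibitors and other Wnt genes were lower than in either WT or Con D0. Of 17 listed genes 8 passed the RPKM limit, and 7 were over 2-fold lower than in WT D0 (median -2.12) and 6 lower than in Con D0 (median -2.47). *Sfrp1*, which sequesters Wnt ligands, was at 7.51 RPKM against 51.7 in WT D0 and 43.97 in Con D0. *Sfrp4* was at 0.183 against 3.83 and 2.27, *Dkk3* at 0.466 against 2.94 and 5.26, *Sfrp2* at 12.6 against 44.4 and 96.4, and the secreted *Ccn5* at 9.48 against 50.9 and 49.96. In K36M cells the list was near 0 (median -0.15, 2 of 8 lower), and its D0 levels were already low, at 8.17 for *Sfrp1* and 3.12 for *Ccn5*.

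Interferon-stimulated genes were lower almost throughout. These genes are switched on by STAT and IRF factors when a cell senses nucleic acid or interferon. Of 18, 17 were over 2-fold lower than in WT D0 and none higher (median -2.78), and 12 were lower than in Con D0 (median -1.16). In K36M cells 14 were lower (median -1.88). The 18 genes summed to 157 RPKM in PPARg WT DMSO, 1033 in WT D0, 336 in Con D0, 199 in PPARg K36M DMSO and 777 in K36M D0, so that the libraries with ectopic PPARγ were the lowest of the 5. *Rsad2*, the antiviral enzyme viperin, was at 0.437 against 22.4 in WT D0 and 2.33 in Con D0 (log2 ratio to WT D0 -5.68, -6.20 to -5.21). *Isg15*, a ubiquitin-like modifier, was at 20.1 against 181 and 42.6, and *Ifit1*, which binds foreign RNA, at 9.85 against 174 and 21.8. Genes of such factors were lower, *Stat2* at 7.19 against 57.8 and *Irf9* at 11.0 against 51.7. *Ifi27l2a* did not pass 2-fold, at 2.28 against 3.43.

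The binding motif of these factors, the interferon-stimulated response element (ISRE, searched as 2 copies of GAAA with any 2 bases between them on both strands), stood in 9 of the 13 list members with a promoter window (69.2%) and in 332 of 9272 genes of the pair (3.58%). Over all genes over 2-fold lower it was in 131 of 2011 (6.51%), and over those higher in 22 of 701 (3.14%). The bases before the start are given for *Isg15* (chr4:155574928-155575177) and *Rsad2* (chr12:27141318-27141567), both on the minus strand of mm9, since they are among the clearest differences of the list. Capitals mark the matches, which overlap in *Isg15*.
Isg15: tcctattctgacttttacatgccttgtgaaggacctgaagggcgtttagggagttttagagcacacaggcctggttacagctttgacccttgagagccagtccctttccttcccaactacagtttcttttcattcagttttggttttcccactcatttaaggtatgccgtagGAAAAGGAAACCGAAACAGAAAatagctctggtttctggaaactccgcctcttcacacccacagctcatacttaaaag
Rsad2: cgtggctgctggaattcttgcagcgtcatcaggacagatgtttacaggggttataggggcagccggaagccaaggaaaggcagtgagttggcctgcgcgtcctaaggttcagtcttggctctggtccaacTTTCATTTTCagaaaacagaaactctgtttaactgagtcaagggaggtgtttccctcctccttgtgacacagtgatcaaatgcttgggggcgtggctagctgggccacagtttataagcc

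Chemokines, cytokines and acute phase genes were lower than in WT D0 for 12 of 16, with none higher (median -3.49). The siderophore-binding lipocalin *Lcn2* was at 1.29 RPKM in PPARg WT DMSO and 269 in WT D0, and serum amyloid *Saa3* at 5.20 and 417. Con D0 was itself low for both, at 3.56 and 8.86. Complement *C3* was at 1.505 against 47.9 and 7.78, and the cytokine *Il6* at 2.28 against 28.6 and 4.05. Against Con D0 the list was divided, with 6 lower and 4 higher (median -0.80). The higher ones were *Ccl2* (704 against 253), *Cxcl1* (147 against 32.96), *Csf1* (285 against 130) and *Ptgs2* (19.97 against 5.90). *Cxcl12*, the chemokine of stromal cells, was lower than in WT D0 and Con D0 at 19.4 against 284 and 169. It was lower still in K36M D0 (12.4) and in shNSD2 D0 (14.8), which had no ectopic PPARγ.

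Amino acid and ER stress genes were lower than in WT D0 but mostly near their level in Con D0. This program is driven by ATF4, which is translated when amino acids are short or the ER is loaded. Of 13 genes 10 were over 2-fold lower than in WT D0 (median -1.69), against 1 of 13 compared with Con D0 (median -0.01). *Ddit3*, which encodes CHOP, was at 23.8 RPKM in PPARg WT DMSO, 275 in WT D0 and 28.4 in Con D0. The pseudokinase gene *Trib3* was at 5.54, 108 and 10.2, and asparagine synthetase, *Asns*, at 56.0, 183 and 54.2. *Slc7a11*, the cystine importer, was the member over 2-fold below Con D0, at 0.817, 23.3 and 1.74. K36M D0 resembled WT D0, with 294 for *Ddit3* and 109 for *Trib3*, and 12 of 13 genes were lower in the K36M pair. *Fgf21*, a hormone induced by ATF4 and also by PPARs, was at 0.194 against 9.18 in WT D0 and 0.607 against 26.6 in the K36M pair.

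The C/EBP-ATF element through which ATF4 acts (CARE, searched as TGATGNAA on both strands) was in the promoter window of 4 of the 13 genes (30.8%), against 247 of 9272 (2.66%). For *Asns* (chr6:7643210-7643459) and *Slc7a11* (chr3:50247536-50247785), both on the minus strand of mm9, the bases before the start are shown with the matches in capitals.
Asns: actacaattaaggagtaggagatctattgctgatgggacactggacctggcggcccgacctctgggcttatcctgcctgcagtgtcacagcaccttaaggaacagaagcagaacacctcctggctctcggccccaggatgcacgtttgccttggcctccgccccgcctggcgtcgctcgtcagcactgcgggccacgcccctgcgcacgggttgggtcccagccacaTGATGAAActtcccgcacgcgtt
Slc7a11: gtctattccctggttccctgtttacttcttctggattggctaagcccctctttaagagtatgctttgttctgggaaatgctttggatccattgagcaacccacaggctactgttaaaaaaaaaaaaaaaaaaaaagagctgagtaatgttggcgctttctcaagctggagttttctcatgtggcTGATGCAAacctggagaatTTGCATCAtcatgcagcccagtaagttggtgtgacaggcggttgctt

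**Figure D5:**
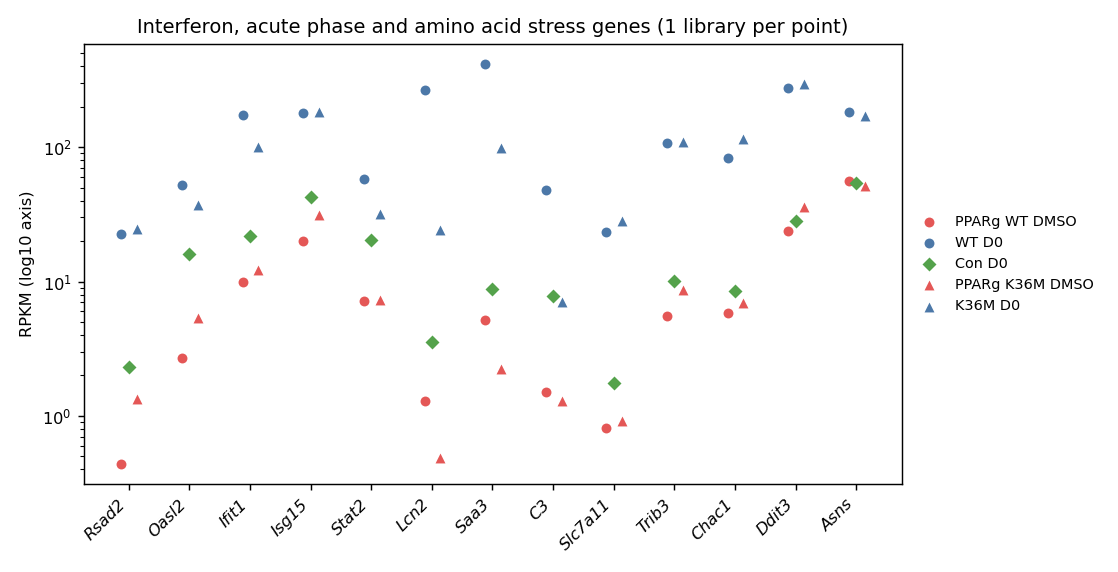
RPKM (y axis, log10 scale) of interferon, acute phase and amino acid stress genes (x axis) in PPARg WT DMSO and WT D0 (circles), Con D0 (diamonds), and PPARg K36M DMSO and K36M D0 (triangles), 1 library per point. WT D0 and K36M D0 stand above the PPARg libraries throughout, and Con D0 lies near PPARg WT DMSO for *Ddit3* and *Asns*.

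The motif bound by PPARγ with RXR, 2 copies of AGGNCA with 1 base between them on either strand (DR1), was rare in promoter windows. It was in 26 of 9272 genes of the pair (0.28%), 2 of the 701 higher genes with a window (0.285%) and 3 of the 2011 lower ones (0.149%). None of the 15 listed targets with a window held it, which says only that these letters are absent from this window.

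By size alone, the 12 genes with the largest ratios to WT D0 were multi-copy or unplaced ones. They included *Rpl19*, the peptidyl-prolyl isomerase *Ppia* (549 against 1.40 RPKM), the mitochondrial ATP synthase gene *Atp5g2* (138 against 0.217), the histone genes *H2ac23* and *H2ac13* (0 reads in WT D0), *Fam177a* with its copy *Fam177a2*, *Gm12070*, *Gm20594*, *Prl2c3* and 2 transcripts with no symbol. *Prl2c3*, a prolactin family gene, was at 798 RPKM against 43.1 in Con D0 and 1.43 in WT D0, and 1 transcript without a symbol had like values (802, 43.6 and 1.40). For the others, Con D0 was within 2-fold of PPARg WT DMSO, from *Fam177a* at 13.1 against 13.6 to *Gm12070* at 128 against 252. All of them are reported as uncertain, because reads could be shared between near-identical copies.

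Among genes with at most 10% repeated windows, a set defined after the values had been seen, the largest ratios included those of *Rpl24*, *Krt13*, *Acsbg1*, *Cldn15*, *Fam166a*, *Hrct1*, *Krt19*, *Lars2*, *Rab3b* and *Fabp7*. *Rpl24* (97.8 against 1.31 RPKM), *Lars2* (352 against 33.8) and *Fam166a* (11.2 against 1.00) were within 2-fold of Con D0. *Krt19* was at 52.5 RPKM in PPARg WT DMSO, 5.01 in WT D0 and 6.30 in Con D0. *Cldn15*, a claudin of tight junctions, was at 21.7, 1.41 and 2.11.

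The 12 lowest ratios were those of *Car6*, *Dcn*, *Igfbp3*, *Lcn2*, *Mt2*, *Gfra1*, *Cxadr*, *AA467197*, *Stc2*, *Serpina3n*, *Saa3* and *Zbp1*. *Igfbp3*, which binds insulin-like growth factors, was at 0.207 RPKM against 45.6 in WT D0 and 25.4 in Con D0 (11, 2380 and 1225 reads). Metallothionein *Mt2*, which binds zinc, was at 1.24 against 181 and 14.7. The carbonic anhydrase *Car6* had 1 read against 332 (log2 ratio -8.40, -13.71 to -5.91) and stood at 0.148 in Con D0 and 16.3 in K36M D0. *Stc2*, a secreted glycoprotein, was also low in Con D0 (0.565), at 0.128 against 12.

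Taking the higher or lower of WT D0 and Con D0 as the reference, a comparison added after the values had been seen, 130 of 9499 genes with few repeats (1.37%) were over 2-fold above both and 557 (5.86%) below both. Genes furthest above both included *Krt13*, *Acsbg1*, *Cldn15*, *Krt19*, *Hrct1*, *S100a3*, *Rab3b*, *Rgcc*, *Pparg* and *Hoxc12*. *Rgcc*, a cell cycle regulator, was at 9.46 against 2.00 and 1.11, and at 64.2 with Rosi. *Acsbg1*, at 5.15 in PPARg WT DMSO, was higher still in shNSD2 D0 at 10.6, where the other genes named were lower. Genes furthest below both were *Igfbp3*, *Dcn*, *Cp*, *Mt2*, *Lama4*, *Cxcl12*, *Ccn3*, *Mgp*, *Sned1*, *Gpx3*, *Cdh11* and *Inhbb*. Some were as low or lower in other D0 libraries without ectopic PPARγ. In shNSD2 D0, *Gpx3* was at 1.23, *Cp* at 0.405 (against 0.432), *Lama4* at 0.456 (0.608) and *Ccn3* at 1.82 (3.54). In K36M D0, *Sned1* was at 5.60 (6.64) and *Cxcl12* at 12.4 (19.4). *Igfbp3*, *Dcn*, *Mt2*, *Mgp*, *Cdh11* and *Inhbb* were higher in K36M D0 and shNSD2 D0 than in PPARg WT DMSO. *Gpx3*, the plasma glutathione peroxidase, was at 10.1 against 72.7 and 72.8, but at 53.9 against 61.2 in the K36M pair.

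The pair in K36M cells shares no library with the WT pair, although it was made in the same 2 experiments and carries the same changes in culture. It gave 965 genes over 2-fold higher (7.91%) and 2568 lower (21%) of 12206, which became 1462 and 1433 after rescaling by the median ratio. Among 9095 genes that passed the limit in both pairs and had few repeats, 276 were higher in both, which is 54.7% of the WT list and 61.3% of the K36M list, where 4.95% of all were higher in the K36M pair. For lower genes it was 1458, or 72.5% and 77.2%, where 20.8% of all were lower. Across genes the 2 sets of log2 ratios had a Pearson r of 0.85 and a Spearman rho of 0.84, with batch and culture shared by all points. Among all 11716 genes that passed in both pairs, 7 of the 969 higher in the WT pair (0.722%) were lower in the K36M pair. There, 20.4% of all 11716 were lower. Of the 2519 genes lower in the WT pair, 16 (0.635%) were higher in the K36M pair, where 7.31% of all were higher. Genes lowest in both pairs were *Cxadr*, *Stc2*, *Mt2*, *Ppef1*, *Lcn2*, *Saa3*, *Fgf21* and *Car6*. *Cxadr*, the coxsackie and adenovirus receptor, was at 0.0498 against 5.53 RPKM in WT and 0.17 against 18.1 in K36M cells. Among the highest in both, with few repeats, were *Acsbg1*, *Rpl24*, *Hrct1*, *Lars2*, *Mxd3* and *Crip1*. In PPARg WT DMSO, *Acsbg1* and *Hrct1* were over 2-fold above Con D0 (log2 ratios 3.39 and 2.66). *Rpl24*, *Lars2*, *Mxd3* and *Crip1* were within 2-fold of Con D0. *Mxd3* was at 25.98 RPKM in PPARg WT DMSO against 28.3 in Con D0, and *Crip1* at 13.99 against 12.6.

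The direction of the main pair was finally set beside 2 responses from other libraries, the first 2 days of differentiation in Con cells and the Rosi response in PPARg K36M cells. From Con D0 to D2, 1256 of the 12130 genes were over 2-fold up (10.4%) and 2036 down (16.8%). Of the 1006 genes higher in PPARg WT DMSO, 64 (6.36%) went up and 341 (33.9%) down from D0 to D2, while of the 2762 lower genes 617 (22.3%) went up and 520 (18.8%) down. With Rosi in K36M cells, 892 genes were up (7.35%) and 1050 down (8.66%). There, 47 of the higher genes (4.67%) went up and 285 (28.3%) down, and of the lower genes 623 (22.6%) went up and 169 (6.12%) down. Those 623 were 69.8% of all genes up with Rosi in K36M cells, where 22.8% of all genes were lower in the main pair. The baseline of that response, PPARg K36M DMSO, shared its experiment and culture with PPARg WT DMSO. Con D0, the baseline of the first response, was also nearer to PPARg WT DMSO than WT D0 was. Only 3.43% of genes were over 2-fold higher than in Con D0, against 8.29% than in WT D0. Genes picked as higher than in WT D0 can thus be high in both baselines already. These counts cannot separate such a high start from a direction of the response. Of the 526 higher genes with at most 10% repeated windows, 34 went up and 238 (45.2%) down from D0 to D2. With Rosi, 24 of them went up and 216 (41.1%) down. Of all genes with so few repeats, 17.8% and 8.84% went down. Genes higher in unliganded PPARγ cells than in WT D0 were thus more often down than up in either response. The share of all genes down was lower, at 16.8% and 8.66%, and no test of the difference was made.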

How the data were processed

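RNA-Seq of SV40T-immortalized mouse brown preadipocytes was used, with 1 library per condition, grouped by the titles in the labels. The authors deposited RPKM per RefSeq transcript for 14 libraries. The submitters' processing notes name mm9, CASAVA 1.8.2 and, for ChIP-Seq, SICER; the RNA-Seq aligner and counter are not given in the sources used here, nor is the treatment of reads with several matches. Of 29082 transcripts 28436 were matched to a symbol, and each of 23109 genes was represented by its transcript of highest RPKM, averaged over the 14 libraries. Whole reads were recovered from the RPKM steps of all 26946 transcripts above 0 in at least 2 libraries (tolerance 1e-05 of a read), giving 12213559 to 24365867 mapped reads per library.

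Genes that reached an RPKM of 1 in either library of a pair were compared by their log2 ratio, called over 2-fold, with no test. A library with 0 reads was set to a floor of 3 reads. Each 95% interval was taken by the Clopper-Pearson method on the share that 1 library held of a gene's reads in the pair, converted to a ratio with the mapped reads, and covers counting error only. Repeated sequence was measured as the share of 32-base windows, every 4 bases, of the longest GENCODE coding transcript that occur more than once in NCBIM37 (mm9). Gene positions are from GENCODE, and promoter bases from RefSeq were placed on NCBIM37 by matching. Scripts were tested on simulated data. Python 3.11.15, numpy 2.4.6, scipy 1.17.1, pandas 2.3.3, matplotlib 3.10.9 and numba 0.67.0 were used.

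The members and gene lists were chosen with earlier results of these data known. Named were *Pparg*, up to 4 members of each list with the largest absolute ratio and 15 fixed genes, the 12 largest and 12 smallest ratios with RPKM of at least 5 in the higher library, and the 8 genes each way with the largest ratios in both the WT and K36M pairs. Further list members were named after their values were seen. Alternatives changed the RPKM limit, the pseudocount, the fold threshold and the scaling, left out genes with repeated sequence, or took Con D0 in place of WT D0. ChIP-Seq files were not used here. Some genes that the rule picks are not reported here.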

Additional observations from a re-analysis of the deposited data

Results flagged for a closer look

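*Cxcl5*, a neutrophil chemokine, had a log2 ratio of -3.48 in the WT pair (3.17 RPKM in PPARg WT DMSO against 35.3 in WT D0) and of 1.10 in the K36M pair (5.48 against 2.56). It was marked because the single ratio of each cell type went the opposite way, and the difference was not tested.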

How the results depend on the processing

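With 1 library per condition, no replicate could be left out. No paired analysis was possible because the labels give no replicate numbers and each condition has 1 library. The counts of 1006 higher and 2762 lower genes became 3798 and 5016 with an RPKM above 0 in either library, and 356 and 757 at a 4-fold threshold. Lower genes numbered 1771 with an RPKM of at least 5. After rescaling by the median ratio, calls divided into 1503 higher and 1969 lower, a higher share of 43.3% against 26.7%. For the K36M pair, higher genes numbered 5353 with an RPKM above 0, 617 with at least 5, 380 at 4-fold and 1462 after rescaling, and lower genes 1704 with at least 5, 507 at 4-fold, 1433 after rescaling and 1698 with a pseudocount of 1. Rescaling raised the K36M higher share from 27.3% to 50.5%. A pseudocount of 1 moved the median of the chemokine and acute phase list to -2.75 and that of the macrophage markers to 0.30. In alternatives chosen after seeing the data, genes with at most 10% repeated windows gave 526 higher in the WT pair and 515 in the K36M pair, and Con D0 in place of WT D0 gave 404 higher and 822 lower. For 321 named genes, 1284 values were computed under pseudocounts of 0.1 and 1, rescaling and RPKM summed over transcripts, of which 332 moved and 0 of those over 2-fold changed sign. With Con D0 in place of WT D0 some did change sign, such as *Ppef1* (log2 ratio -5.72 to 2.67), *Fgf21* (-5.56 to 0.86) and *Lpl* (-1.52 to 1.68). The causes were not tested, beyond the fewer genes or the higher threshold that a setting itself imposes.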

Other observations

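Cell cycle inhibitors were mostly at or below their WT D0 level. Of 14, 1 was over 2-fold higher and 5 lower (median log2 ratio -0.61), and against Con D0 it was 1 and 2 (median -0.63). Most genes of the pair were also below WT D0, with 8.29% higher, 22.8% lower and a median of -0.30. Against Con D0, 3.43% of all genes were higher and 6.98% lower. *Cdkn2b*, which inhibits CDK4 and CDK6, was at 12.8 RPKM against 62.9 in WT D0 and 32.99 in Con D0, and *Cdkn2a*, of the same locus, at 76.1 against 224 and 155. *Gas6*, a growth arrest gene, was at 11.97 against 53.9, and *Cdkn1c* was the higher member at 7.58 against 2.82. *Cdkn1a*, the p21 inhibitor, was at 149 against 182 and 127.

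Of 12 immediate early genes none was higher and 4 were lower (median -0.62), and against Con D0 1 was higher and 5 lower (median -0.29). For all genes the shares were 8.29% and 22.8% against WT D0, and 3.43% and 6.98% against Con D0. *Atf3*, also an ATF4 target, was at 1.26 RPKM against 50.2 in WT D0 and 1.18 in Con D0. *Myc* was at 39.5 against 95.1 and 23.5. *Fos* was at 1.12 against 2.73 in WT D0 and 8.37 in Con D0.

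Of 13 glycolysis and hypoxia genes 2 were higher and 3 lower than in WT D0 (median -0.33), shares not far from the 8.29% and 22.8% of all genes. Against Con D0 it was 3 higher and none lower (median 0.50), and the median of the K36M pair was 0.29. The glycolytic enzyme genes *Ldha* (387 against 155 RPKM) and *Eno1* (141 against 50.3) were higher, but 50% and 78.9% of their windows are repeated, and none of the 8 members with at most 10% repeated windows was higher (median -0.60). By contrast, the angiogenic factor *Vegfa* (52.1 against 176) and the hexokinase *Hk2* (10.7 against 29.1) were lower. Con D0 stood near PPARg WT DMSO for *Vegfa* (55.0) and *Hk2* (9.47).

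Among 16 TGF-beta genes 2 were higher and 3 lower (median -0.07, or 0.18 after rescaling), shares not far from the 8.29% and 22.8% of all genes. Against Con D0 it was 2 and 2 (median 0.04), and in the K36M pair 4 higher and 2 lower (median 0.31). *Smad6*, an inhibitor of BMP signalling, was at 39.1 RPKM against 9.96 in WT D0 and 34.5 in Con D0, while the coreceptor *Tgfbr3* was at 8.90 against 43.96 and 19.1.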
